A study of Mus musculus with 4 samples.

Results

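The joins described here lie on chromosome 12 outside the 3 main switch regions of this culture, Sμ, Sγ1 and Sε. Nearly all link such a place to a DNA break in Sμ. Exceptions, which stay in the counts, are the second junctions of 4 reads that cross a pair of junctions. For the read joined at 115202600 a break in Sμ is uncertain. All joins were taken from the deposited lists of joins in the rest of the immunoglobulin heavy chain locus (IgH) and, outside IgH, from the lines that name chromosome 12. The submitters' IgH list ends below the variable (V) part of the locus, so joins there are on the list outside IgH. The lists held 372 such joins, which came to 327 distinct joins when each position and strand was counted once per library, out of 18731 joins of all kinds. Of the distinct joins, 45 came from CtIP_AA, 40 from CtIP_KO, 114 from XRCC4_KO and 128 from Wildtype. The list of joins outside IgH was not analysed here for CtIP_AA, so that library enters through the rest of IgH and through the deposited summary counts.

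Splenic B cells without CD43, from mice that carry preassembled IgH and IgK loci, were grown for 4 days with anti-CD40 (1 ng/mL) and IL-4 (20 ng/mL), and all 4 libraries share this treatment. CtIP_AA is homozygous for the T855A substitution in CtIP, and its label names neither a Cre nor an XRCC4 allele. CtIP_KO carries CD21Cre, CtIP C/- and XRCC4 +/C. XRCC4_KO carries CD21Cre, CtIP +/- and XRCC4 C/-. Wildtype carries CD21Cre, CtIP +/C and XRCC4 +/C. CD21Cre acts late in B cell development, so deletion starts from B cells that already formed. The strain is given as BL6 in one label and 129Sv in another. Each genotype is 1 library, so every p below compares libraries by their join counts, and intervals cover counting error only.

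Class switching replaces the IgM constant gene by cutting Sμ and a downstream switch region, both targeted by the deaminase AID, and joining the ends with loss of the DNA between. CtIP trims broken ends and so exposes single strands, and XRCC4 holds DNA ligase IV in classical end joining, which seals ends with little or no shared sequence. Alternative end joining tends to use microhomology, short stretches present at both ends. On mm9 chromosome 12 lower coordinates lie towards the constant genes, in the order Igha, Ighe, Ighg2c, Ighg2b, Ighg1, Ighg3, Ighd and Ighm, and the J, D and V segments lie above Sμ. Joins could therefore fall below Sε (Igha and Ighe), between Sε and Sγ1 (Ighg2c, Ighg2b and Ighg1) or between Sγ1 and Sμ (Ighg3, Ighd and Ighm). Above Sμ they could fall in the J and D part or in the variable part. Below, the switch regions means Sμ, Sγ1 and Sε. Other switch regions of the locus were not located, so joins in them would be counted in these zones.

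Reads start at the nested Sμ primer and run towards lower coordinates, and the 2 primers of the study set where each read begins.

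biotin primer: cagacctgggaatgtatggt
nested primer: cacacaaagactctggacctc

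The following 10 stretches show what such joins look like in the reads, 5′ to 3′, with Sμ bait on the left and up to 25 bases on each side of the join. Capitals mark bases shared by both ends (microhomology) or bases that belong to neither aligned end (insertion). They are the longest microhomologies and the longest insertions of up to 30 bp found in each zone, cut to the 10 longest.

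CtIP_KO, 16 bp microhomology at 23887230, minus strand: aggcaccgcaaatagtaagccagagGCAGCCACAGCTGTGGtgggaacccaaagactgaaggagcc
Wildtype, 29 bp insertion at 63383347, minus strand: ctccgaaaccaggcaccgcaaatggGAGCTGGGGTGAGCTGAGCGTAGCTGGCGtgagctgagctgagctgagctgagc
Wildtype, 20 bp insertion at 114466188, plus strand: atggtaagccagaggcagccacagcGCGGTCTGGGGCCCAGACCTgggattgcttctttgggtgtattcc
XRCC4_KO, 15 bp microhomology at 114551636, plus strand: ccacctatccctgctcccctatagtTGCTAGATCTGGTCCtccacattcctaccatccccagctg
CtIP_KO, 27 bp insertion at 114550924, minus strand: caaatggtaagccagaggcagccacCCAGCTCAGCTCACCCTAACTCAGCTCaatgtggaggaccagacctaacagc
CtIP_AA, 26 bp insertion at 114602148, minus strand: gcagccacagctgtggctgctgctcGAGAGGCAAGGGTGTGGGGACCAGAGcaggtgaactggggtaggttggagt
CtIP_KO, 9 bp microhomology at 114704865, minus strand: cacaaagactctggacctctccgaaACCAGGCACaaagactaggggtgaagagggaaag
XRCC4_KO, 12 bp insertion at 114710972, plus strand: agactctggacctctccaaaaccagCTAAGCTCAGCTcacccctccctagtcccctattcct
XRCC4_KO, 8 bp microhomology at 115605227, plus strand: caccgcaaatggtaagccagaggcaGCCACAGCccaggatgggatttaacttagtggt
XRCC4_KO, 13 bp insertion at 115202600, plus strand: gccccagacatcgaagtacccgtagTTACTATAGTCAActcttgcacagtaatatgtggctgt

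In the 15 bp microhomology read, the left part is itself a piece of chromosome 12 that ends at 114551014, which the same read joins to the Sμ bait further left. The 13 bp insertion read has its left part from 114667792 to 114668044, on the plus strand, and does not start at the primer. That part runs past the upper end of the listed Sμ span, 114668027. The other 8 stretches have Sμ bait from the primer on the left.

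The libraries held 3220 joins in CtIP_AA, 2555 in CtIP_KO, 3521 in XRCC4_KO and 9435 in Wildtype, so a single join weighs least in Wildtype. Of the lines outside IgH, 4 of 158 were emptied in CtIP_KO, 8 of 276 in XRCC4_KO and 36 of 365 in Wildtype, and their positions were not used here. Before the results, 6 joins must be named that occur in a pair of libraries with the same position, strand and bait end, although no read name recurs between libraries. They are 77354882 and 114489819 (XRCC4_KO and Wildtype), 114488019 and 114689148 (CtIP_AA and Wildtype), and 114548588 and 114548662 (CtIP_KO and Wildtype, both in 1 read of each library). Whether these are separate events was not tested, and the comparisons were repeated without them, other than those made on summary counts. The latter are the rest of IgH over all joins inside IgH, and the chromosome 12 shares given below from the summary. Each called comparison that was repeated kept its call, except the strand of XRCC4_KO joins below Sμ, given below.

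Chromosome 12 joins beyond the switch regions took a larger share of the XRCC4_KO library than of Wildtype. They made up 3.64% of its joins (128 of 3521), against 1.62% in Wildtype (153 of 9435), an odds ratio of 2.29 (exact 95% interval 1.79 to 2.92, Fisher's exact adjusted p = 5.25e-11). In CtIP_KO they made up 1.68% (43 of 2555), and the odds ratio against Wildtype, 1.04, had an interval of 0.720 to 1.47 (exact adjusted p = 0.793). The summary counts, which cover all lines, gave 71 such joins in CtIP_AA (2.20%), 43 in CtIP_KO (1.68%), 131 in XRCC4_KO (3.72%) and 163 in Wildtype (1.73%). On those counts the odds ratio of CtIP_AA against Wildtype was 1.28 (0.954 to 1.71, Fisher's exact adjusted p = 0.245).

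The rest of IgH and chromosome 12 outside IgH were compared with Wildtype separately, with the variable part counted outside IgH. Over all joins inside IgH, the rest of IgH took 1.56% in CtIP_AA (48 of 3083), 1.04% in CtIP_KO (25 of 2397), 2.13% in XRCC4_KO (69 of 3245) and 0.860% in Wildtype (78 of 9070). The odds ratios against Wildtype were 1.82 for CtIP_AA (1.24 to 2.65, exact adjusted p = 0.00279), 1.22 for CtIP_KO (0.740 to 1.93, exact adjusted p = 0.395) and 2.50 for XRCC4_KO (1.78 to 3.52, exact adjusted p = 2.30e-07). Outside IgH, the summary counted 23 chromosome 12 joins in CtIP_AA, 18 in CtIP_KO, 62 in XRCC4_KO and 85 in Wildtype, which were 0.714%, 0.705%, 1.76% and 0.901% of all joins. Against Wildtype the odds ratio was 0.791 for CtIP_AA (0.475 to 1.27, Fisher's exact adjusted p = 0.544), 0.780 for CtIP_KO (0.441 to 1.31, exact adjusted p = 0.544) and 1.97 for XRCC4_KO (1.39 to 2.77, exact adjusted p = 0.000716). The 2 places were not tested against each other.

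**Figure D1:**
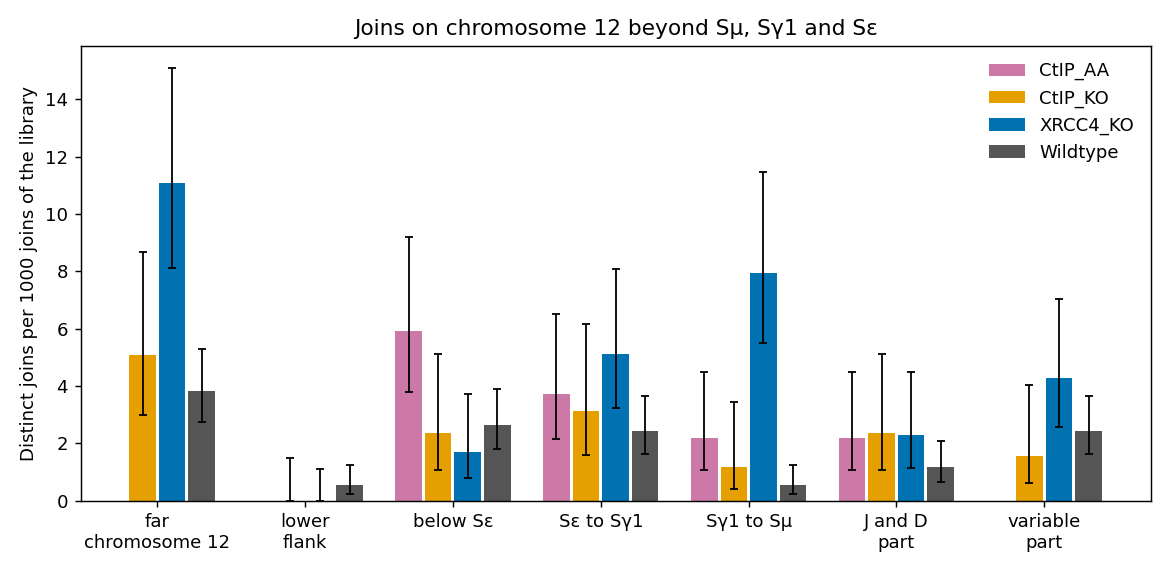
Distinct joins per 1000 joins of the library (vertical axis), by place along chromosome 12 (horizontal axis, low to high coordinate), with 95% Wilson intervals as bars. The joins plotted were reduced to 1 per position and strand, but the joins of the library they are divided by were not. That took the listed joins from 48 to 45 in CtIP_AA, 43 to 40 in CtIP_KO, 128 to 114 in XRCC4_KO and 153 to 128 in Wildtype. CtIP_AA has bars only for the 4 zones of the IgH list. Between Sγ1 and Sμ, XRCC4_KO stands at 7.95 and Wildtype at 0.530.

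Below Sε lie Igha and Ighe (the IgA and IgE constant genes). The 4 libraries had 19, 6, 6 and 25 distinct joins there in CtIP_AA, CtIP_KO, XRCC4_KO and Wildtype. That was 5.90, 2.35, 1.70 and 2.65 per 1000 joins of each library in the same order, so CtIP_AA stood highest and XRCC4_KO lowest. In these values the joins of each library, unlike the distinct joins, were not reduced to 1 per position and strand. As a share of a library's distinct members, XRCC4_KO had 5.26% there, against 19.5% in Wildtype (odds ratio 0.230, 0.0741 to 0.605, Fisher's exact adjusted p = 0.00814). Shares add up to the whole, so the excess of XRCC4_KO joins elsewhere lowers this one, and the Wilson intervals of the values per 1000 joins overlapped (0.781 to 3.71 in XRCC4_KO and 1.80 to 3.91 in Wildtype). Without joins within 10 kb of a switch region the call was lost (odds ratio 0.211, exact adjusted p = 0.152). Over the IgH list alone CtIP_AA had 42.2% of its joins below Sε, against 39.1% in Wildtype (odds ratio 1.14, 0.487 to 2.65, exact adjusted p = 0.893).

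Most joins of this zone lay in 4 windows of 10 kb, and the others lay outside them. The window from 114460000 to 114469999 held 15 distinct joins (4 in CtIP_AA, 3 in CtIP_KO, 0 in XRCC4_KO and 8 in Wildtype), and the one from 114490000 to 114499999 held 14 (4, 1, 2 and 7). From 114480000 to 114489999 there were 9 (4, 0, 1 and 4). The window from 114500000 to 114509999, next to Sε, held 11 (3, 2, 2 and 4), all on the minus strand. AGCT is the core of the sequence that AID prefers. In that last window 7 of 11 joins had it within the 10 bases on either side of the junction. The windows from 114460000, 114480000 and 114490000 had 2 of 15, 0 of 9 and 3 of 14, and the whole zone had 13 of 56.

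Between Sε and Sγ1 lie Ighg2c, Ighg2b and Ighg1 (the IgG2c, IgG2b and IgG1 constant genes). This zone had 12 distinct joins in CtIP_AA, 8 in CtIP_KO, 18 in XRCC4_KO and 23 in Wildtype. Per 1000 joins this was 3.73, 3.13, 5.11 and 2.44. For none of the 3 mutant libraries did the difference from Wildtype in this share pass (exact adjusted p = 0.663 for CtIP_AA, 0.893 for CtIP_KO and 0.893 for XRCC4_KO). The fullest window of all members was in this zone, from 114540000 to 114549999, with 28 distinct joins, of which 4 were in CtIP_AA, 6 in CtIP_KO, 5 in XRCC4_KO and 13 in Wildtype. Of these 28, 25 were on the minus strand and 12 had AGCT near the junction. The adjacent window from 114550000 held 12 joins (1, 2, 5 and 4), 9 of them with AGCT. Whether these windows lie in a switch region other than Sγ1 and Sε was not tested. AGCT stood near the junction in 7 of 12 joins of this zone in CtIP_AA, 2 of 8 in CtIP_KO, 7 of 18 in XRCC4_KO and 12 of 23 in Wildtype. On other chromosomes it stood near 15 of 134 joins in CtIP_KO (11.2%, Wilson interval 6.90 to 17.6), 19 of 208 in XRCC4_KO (9.13%, 5.93 to 13.8) and 28 of 241 in Wildtype (11.6%, 8.16 to 16.3). Those joins are a comparison for the same 20 bases of context, and no share for random sequence was computed.

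Between Sγ1 and Sμ the XRCC4_KO library stood apart. It had 28 distinct joins there, or 24.6% of its members, against 5 in Wildtype, or 3.91% (odds ratio 7.95, 2.87 to 27.4, Fisher's exact adjusted p = 4.76e-05). CtIP_KO had 3 (7.50%, odds ratio 1.99, 0.295 to 10.8, exact adjusted p = 0.663). CtIP_AA had 7, which were 15.6% of its IgH list against 7.81% of that of Wildtype (odds ratio 2.16, 0.544 to 9.29, exact adjusted p = 0.663). Per 1000 joins the values were 2.17 in CtIP_AA, 1.17 in CtIP_KO, 7.95 in XRCC4_KO and 0.530 in Wildtype.

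The XRCC4_KO joins of this zone gathered just below Sμ. In the 20 kb below its lowest listed join, XRCC4_KO had 20 distinct joins (33.3% of its IgH list, Wilson interval 22.7 to 45.9), against 3 in Wildtype (4.69%, 1.61 to 12.9). CtIP_AA had 1 (2.22%, 0.393 to 11.6) and CtIP_KO also had 1 (4.35%, 0.772 to 21.0). Of the 20 in XRCC4_KO, 7 lay within 2 kb, 4 from 2 to 5 kb, 5 from 5 to 10 kb and 4 from 10 to 20 kb. Of the 20, 17 were on the minus strand and 16 had microhomology. The window from 114650000 to 114659999 held 15 XRCC4_KO joins, 1 each of CtIP_AA and CtIP_KO and 2 of Wildtype, and AGCT stood near 1 of these 19. On the upper side of Sμ there was no such gathering, with 1 join in the first 20 kb above it in CtIP_AA, 0 in CtIP_KO, 1 in XRCC4_KO and 1 in Wildtype. Without joins within 2 kb of a switch region the zone share of XRCC4_KO was 20.0%, against 3.97% in Wildtype (odds ratio 6.01, exact adjusted p = 0.00228). Without those within 10 kb it was 11.9% against 2.65% (odds ratio 4.92, 1.21 to 28.7, exact adjusted p = 0.154). That difference missed the threshold.

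Further from Sμ, on the Ighg3 side (an IgG constant gene), the window from 114600000 to 114609999 held 10 distinct joins, 4 in CtIP_AA, 2 in CtIP_KO, 2 in XRCC4_KO and 2 in Wildtype. Of these, 6 were on the plus strand and 6 had AGCT near the junction.

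**Figure D2:**
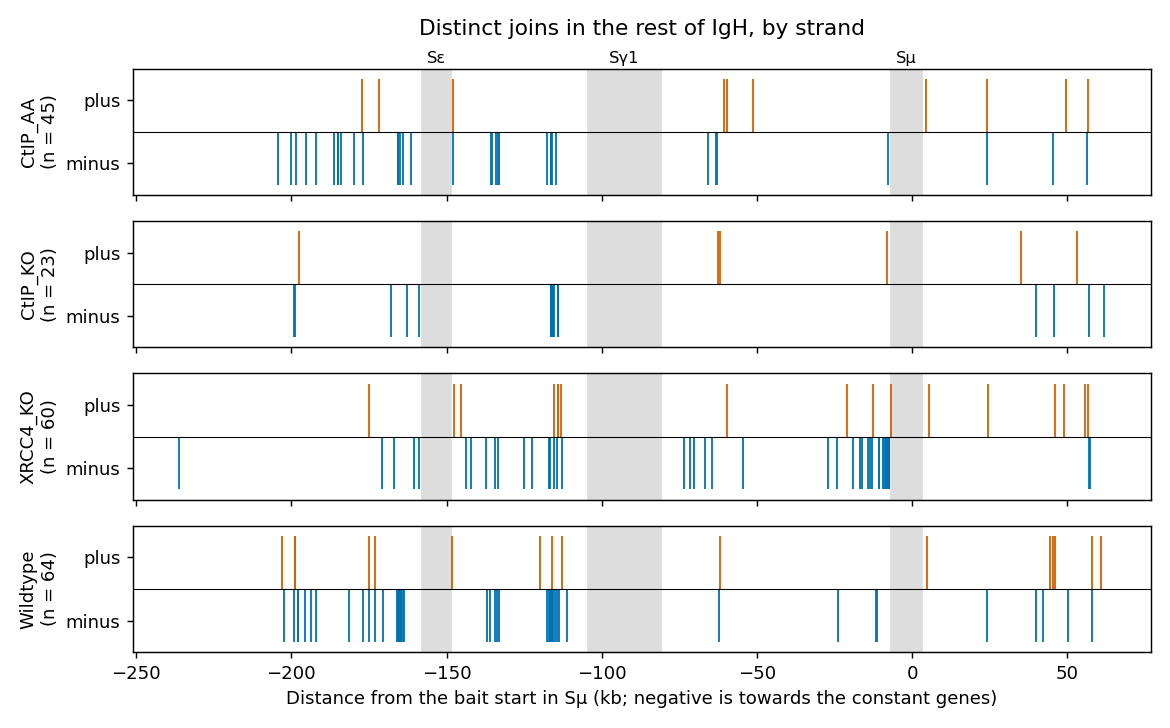
Distinct joins of the IgH list in each library, by distance in kb from the start of the bait in Sμ (horizontal axis), with plus strand joins above and minus strand joins below each line and the listed spans of Sε, Sγ1 and Sμ in grey. The minus strand lines just below Sμ in XRCC4_KO are the 17 joins within 20 kb of it.

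The zone up to 60 kb above the listed Sμ span is called the J and D part (joining and diversity segments) by distance alone. Positions of these segments were not checked, and J segments inside the listed Sμ span would not be counted in it. The zone had 7 distinct joins in CtIP_AA, 6 in CtIP_KO, 8 in XRCC4_KO and 11 in Wildtype. No difference in share from Wildtype passed (exact adjusted p = 1 for CtIP_AA, 0.663 for CtIP_KO and 0.893 for XRCC4_KO). The window from 114720000 to 114729999 held 11 of these joins, with 2, 2, 4 and 3 in the same order. Some positions here were read repeatedly. Position 114709287 on the plus strand had 5 reads in Wildtype and 114689356 on the plus strand had 4 in XRCC4_KO, each with 1 bait end and 1 overlap. They count as 1 distinct join each.

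The variable part, from 60 kb to 2.6 Mb above Sμ, holds the V segments, which are joined to D and J in precursor cells by the RAG nuclease at heptamer signals. It had 4 distinct joins in CtIP_KO, 15 in XRCC4_KO and 23 in Wildtype. As shares of the members these were 10.0%, 13.2% and 18.0% (odds ratios against Wildtype 0.509, 0.120 to 1.63, exact adjusted p = 0.663, for CtIP_KO, and 0.693, 0.317 to 1.48, exact adjusted p = 0.663, for XRCC4_KO). Because the mice carry a preassembled IgH locus, mm9 positions above Sμ describe the reference order and not the order on that allele.

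The strand of the variable part joins was not even along its length in Wildtype. The split at the middle of the zone, 115998027, was chosen after the values were seen and is given with no test. CtIP_KO had 2 of 2 joins on the minus strand in the lower part and 2 of 2 in the upper part. XRCC4_KO had 3 of 11 in the lower part and 1 of 4 in the upper part. Wildtype had 3 of 12 in the lower part and 11 of 11 in the upper part, or 3 of 11 and 9 of 9 with joins within 100 bp counted once.

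In the variable part 3 joins had a heptamer of the RAG signal, CACAGTG or its reverse complement CACTGTG, in the 20 bases of reference around the junction (10 on each side), shown here in capitals.

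XRCC4_KO, 115202600, plus strand: caCACTGTGtctcttgcaca
XRCC4_KO, 114954881, plus strand: ccaCACTGTGtgtctggcac
Wildtype, 115232680, plus strand: caaCACTGTGtctagcacag

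At 115232680 and 114954881 the heptamer ended directly before the first joined base, and at 115202600 it ended 1 base before it. Their insertions were 13, 1 and 10 bp in the order printed. Unlike the others, the read at 115202600 does not start at the primer, and its left part ends at 114668044, above the listed Sμ span. That left part is on the plus strand, and the bait of the others is on the minus strand. Whether this read joins a break in Sμ was not tested, and it is counted among the 15 XRCC4_KO joins of the variable part. The search was made after the values were seen. No other chromosome 12 member had the heptamer. On other chromosomes 0 of 134 joins had it in CtIP_KO (a share of up to 2.24% is allowed by a count of 0), 0 of 208 in XRCC4_KO (up to 1.44%) and 5 of 241 in Wildtype, and none of the 5 ended within 1 base of the junction.

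The list outside IgH takes in the variable part. On it, chromosome 12 took 11.3% of distinct joins in CtIP_KO (17 of 151), 20.6% in XRCC4_KO (54 of 262) and 21.0% in Wildtype (64 of 305). The odds ratio against Wildtype was 0.478 for CtIP_KO (0.252 to 0.868, Fisher's exact adjusted p = 0.0259) and 0.978 for XRCC4_KO (0.636 to 1.50, exact adjusted p = 0.918). Much of the CtIP_KO difference lay in the variable part and near IgH. The variable part held 4 of the chromosome 12 joins in CtIP_KO, 15 in XRCC4_KO and 23 in Wildtype. From 1 Mb below IgH to the upper end of the chromosome there were 4 joins in CtIP_KO (2.65% of joins outside IgH, Wilson interval 1.03 to 6.61), 16 in XRCC4_KO (6.11%, 3.79 to 9.69) and 29 in Wildtype (9.51%, 6.70 to 13.3). Without them the chromosome 12 share was 8.84% in CtIP_KO against 12.7% in Wildtype (odds ratio 0.669, 0.313 to 1.35, Fisher's exact adjusted p = 0.379). With joins within 100 bp counted once the CtIP_KO odds ratio was 0.532 (exact adjusted p = 0.0636).

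The flank of 1 Mb below IgH had 0 distinct joins in CtIP_KO, 0 in XRCC4_KO and 5 in Wildtype, between 114097747 and 114366218. Counts of 0 allow shares of up to 7.50% of the members in CtIP_KO and 2.63% in XRCC4_KO, against 3.91% in Wildtype, so the difference was not detectable at this depth in CtIP_KO (exact adjusted p = 0.663) and did not pass the threshold in XRCC4_KO (exact adjusted p = 0.372).

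The far part of chromosome 12 had 13 distinct joins in CtIP_KO, 39 in XRCC4_KO and 36 in Wildtype, or 5.09, 11.1 and 3.82 per 1000 joins of the library (Wilson intervals 2.98 to 8.68, 8.11 to 15.1 and 2.76 to 5.28). As a share of the members it was 32.5%, 34.2% and 28.1%, and neither difference from Wildtype in that share passed (exact adjusted p = 0.893 for CtIP_KO and 0.663 for XRCC4_KO). Of these 88 joins 42 fell into 6 groups with gaps of at most 100 kb, and 46 stood alone.

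The largest group, between 70296247 and 70400067, held 17 joins, 1 in CtIP_KO, 6 in XRCC4_KO and 10 in Wildtype, with 9 on the minus strand and 8 on the plus strand. Within it, 11 lay in 7156 bp from 70296247 to 70303402 (1, 3 and 7) and 5 in 9039 bp from 70391029 to 70400067 (0, 2 and 3). Reads of the first of these met gene starts. An exact run of at least 24 bases in the promoter of 1 gene of chromosome 12, and of no other gene, was found for 6 members, out of 32851 promoters of the RefSeq table for GRCm38.p6. Of these 6 joins, 2 met 9330151L19Rik and 2 met Dnaaf2 (a factor that assembles the dynein arms of cilia), which are neighbours in the gene order. The other 2 met Mnat1 (a subunit of the kinase that activates other cell cycle kinases), at 74224727 in XRCC4_KO, and Asb2 (a substrate adaptor of a ubiquitin ligase), at 104576916 in Wildtype. The joins at 70297990 in XRCC4_KO and 70298089 in Wildtype lay 208 and 109 bases before the start of 9330151L19Rik. The join at 70299381 in XRCC4_KO lay 35 bases after the start of Dnaaf2, and that at 70299516 in Wildtype lay 100 bases before it.

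The 2 promoters are printed from 250 to 51 bases before the gene start, on the strand of the gene, from RefSeq (GRCm38.p6). Capitals mark the run that is identical to the Wildtype read joined at 70298089 or at 70299516.

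9330151L19Rik, plus strand: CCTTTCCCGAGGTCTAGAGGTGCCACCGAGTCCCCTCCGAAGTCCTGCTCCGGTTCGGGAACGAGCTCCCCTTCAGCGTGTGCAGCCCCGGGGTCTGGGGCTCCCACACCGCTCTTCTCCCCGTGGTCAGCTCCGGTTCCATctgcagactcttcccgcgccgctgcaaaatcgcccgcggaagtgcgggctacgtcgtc
Dnaaf2, minus strand: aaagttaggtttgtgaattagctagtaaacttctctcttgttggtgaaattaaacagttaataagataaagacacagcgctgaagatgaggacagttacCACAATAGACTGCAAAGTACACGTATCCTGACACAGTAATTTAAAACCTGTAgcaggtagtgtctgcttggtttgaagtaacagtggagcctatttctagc

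The next 2 groups were repeats that resemble Sμ. At 63383318 to 63383369, a span of 52 bp, there were 10 distinct joins, 1 in CtIP_KO, 3 in XRCC4_KO and 6 in Wildtype. At 77354880 to 77354882 there were 3, 2 in XRCC4_KO and 1 in Wildtype. The joined sequence of these 13 held 10.2 to 19.2 of the Sμ-type pentamers GAGCT and GGGGT per 100 bases, counted on both strands (AGCTC and ACCCC), with a median of 16.2, against at most 3.33 in the other 122 members outside the IgH list. The stretch printed for 63383347 shows this repeat. The joined pieces were 25 to 54 bases long, so whether they came from these positions or from a switch region was not tested. AGCT stood near the junction of 7 of 39 flank and far joins in XRCC4_KO and 11 of 41 in Wildtype with these sites, and of 3 of 34 and 5 of 34 without them, against 0 of 13 and 0 of 12 in CtIP_KO.

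Of the remaining groups, 6 joins lay within 135 bp at 3109913 to 3110047 (3 in CtIP_KO, 1 in XRCC4_KO and 2 in Wildtype). In this group 3 were on the minus strand and 3 on the plus strand. Whether the joined pieces came from this position was not tested. A further 4 lay within 1172 bp at 88538427 to 88539598 (1, 2 and 1), all on the plus strand.

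The strand gave a second description of the joins. Below Sμ a minus strand join keeps the direction of the chromosome, as a deletion does, and a plus strand join turns it round, as an inversion does. Among IgH joins below Sμ the minus strand held 84.2% in CtIP_AA (32 of 38), 76.5% in CtIP_KO (13 of 17), 78.8% in XRCC4_KO (41 of 52) and 81.1% in Wildtype (43 of 53). Each value was below that of Sγ1 and Sε in the same library, where every counted join enters, which was 93.5% in CtIP_AA, 91.9% in CtIP_KO, 90.4% in XRCC4_KO and 92.9% in Wildtype. Fisher's exact test called this in XRCC4_KO (odds ratio 0.394, 0.195 to 0.864, exact adjusted p = 0.0400) and in Wildtype (odds ratio 0.327, 0.161 to 0.735, exact adjusted p = 0.0121). It did not in CtIP_AA (odds ratio 0.371, 0.149 to 1.10, exact adjusted p = 0.0809) or CtIP_KO (odds ratio 0.288, 0.0874 to 1.23, exact adjusted p = 0.0912). The XRCC4_KO call was lost without the shared joins (odds ratio 0.433, exact adjusted p = 0.0720). The zones differed. In CtIP_AA, CtIP_KO, XRCC4_KO and Wildtype the minus strand held 17 of 19, 5 of 6, 5 of 6 and 20 of 25 below Sε. Between Sε and Sγ1 it held 11 of 12, 8 of 8, 12 of 18 and 19 of 23 in that order. Between Sγ1 and Sμ it held 4 of 7, 0 of 3, 24 of 28 and 4 of 5. The zones were not tested separately for strand.

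**Figure D3:**
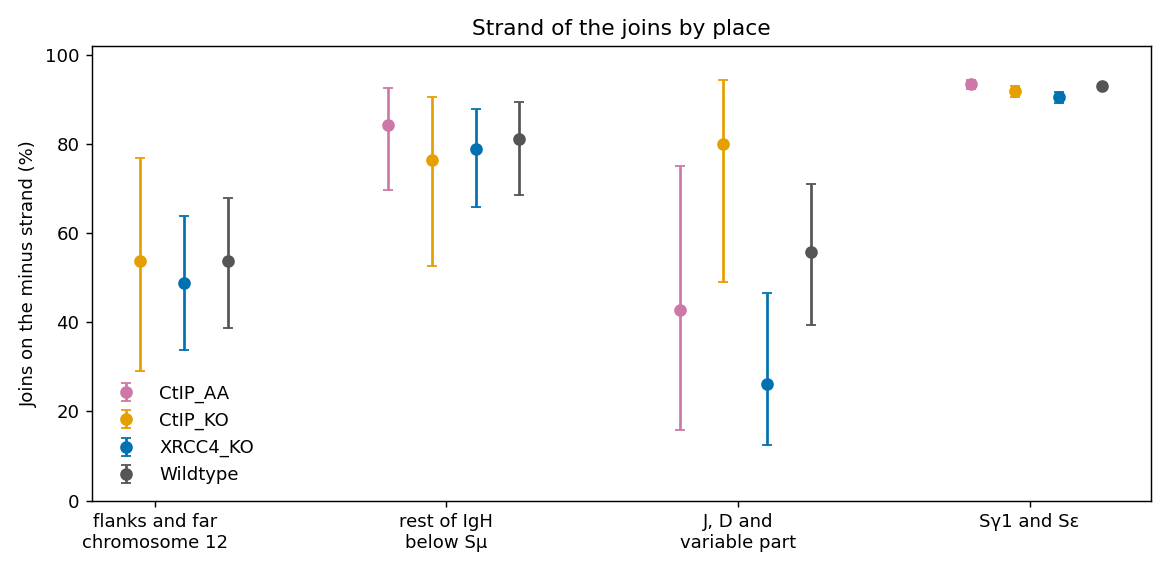
Share of distinct joins on the minus strand in percent (vertical axis), by place, with 95% Wilson intervals, and for Sγ1 and Sε over all counted joins. CtIP_AA has no value for the flanks and far chromosome 12, and its value in the third place covers the J and D part alone. XRCC4_KO lies at 26.1% in the J, D and variable part, and Wildtype at 55.9%.

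In the J, D and variable part both strands were used. The minus strand held 8 of 10 joins in CtIP_KO, 6 of 23 in XRCC4_KO (26.1%) and 19 of 34 in Wildtype (55.9%). The difference between XRCC4_KO and Wildtype had an odds ratio of 0.285 (0.0728 to 0.996) and did not pass after adjustment (Fisher's exact p = 0.0325, adjusted p = 0.0794). It passed when every listed line was counted (odds ratio 0.214, exact adjusted p = 0.0105). In CtIP_AA, 3 of 7 joins of the J and D part were on the minus strand.

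On the flanks and far chromosome 12 the strands were nearly even. The minus strand held 53.8% in CtIP_KO (7 of 13), 48.7% in XRCC4_KO (19 of 39) and 53.7% in Wildtype (22 of 41), each lower than in Sγ1 and Sε of its library (Fisher's exact adjusted p = 0.00146 for CtIP_KO, 7.08e-10 for XRCC4_KO and 1.09e-10 for Wildtype). Neither difference between a mutant library and Wildtype passed there (exact adjusted p = 1 for CtIP_KO and 0.905 for XRCC4_KO).

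Microhomology was the most frequent join class among the members in all 4 libraries. It was found at 51.1% of the distinct joins in CtIP_AA (23 of 45, IgH list), 70.0% in CtIP_KO (28 of 40), 70.2% in XRCC4_KO (80 of 114) and 55.5% in Wildtype (71 of 128). Insertions were found at 28.9%, 15.0%, 21.9% and 28.1%, and blunt joins at 20.0%, 15.0%, 7.89% and 16.4%, in the same order. No difference from Wildtype in a class passed after adjustment over 9 tests. The nearest was microhomology in XRCC4_KO (odds ratio 1.88, 1.07 to 3.34, Fisher's exact adjusted p = 0.213). Microhomology of at least 2 bp was found at 60.5% of XRCC4_KO joins against 33.6% in Wildtype (odds ratio 3.02, 1.74 to 5.30, exact adjusted p = 0.000304), so that call depends on leaving single shared bases out.

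Microhomologies had a median of 2 bp in CtIP_AA, CtIP_KO and Wildtype and 3 bp in XRCC4_KO. The longest were 6, 16, 15 and 11 bp in CtIP_AA, CtIP_KO, XRCC4_KO and Wildtype. The XRCC4_KO value is at 114551636, a second junction whose left part is not Sμ. With Sμ bait the longest in XRCC4_KO was 12 bp, at 96191011 and 110443958. At least 4 bp was shared at 5 of 23 microhomology joins in CtIP_AA, 8 of 28 in CtIP_KO, 24 of 80 in XRCC4_KO and 18 of 71 in Wildtype. Among IgH joins below Sμ the numbers were 2 of 18, 0 of 10, 13 of 39 and 6 of 31. On the flanks and far chromosome 12 of CtIP_KO, 12 of 13 joins had microhomology, 1 was blunt and none had an insertion, against 23, 8 and 10 of 41 in Wildtype.

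**Figure D4:**
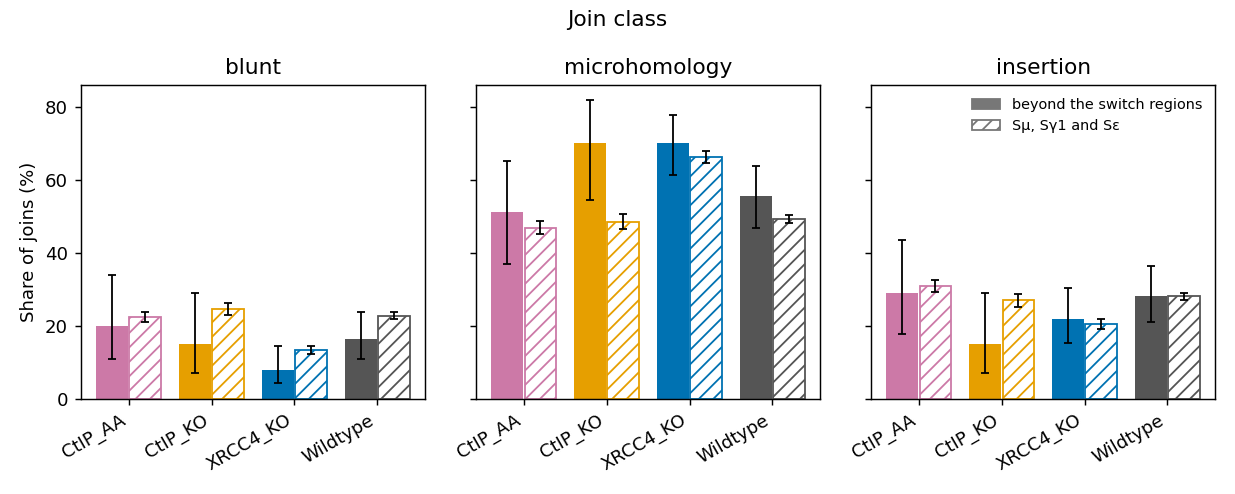
Share of joins in percent (vertical axis) that were blunt, had microhomology or had an insertion, in each library, with 95% Wilson intervals. Filled bars are distinct joins on chromosome 12 beyond the switch regions (the IgH list alone in CtIP_AA), and hatched bars are all joins in Sμ, Sγ1 and Sε. In CtIP_KO microhomology stands at 70.0% beyond the switch regions and 48.5% in them.

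Set against Sμ, Sγ1 and Sε of the same library, the members of CtIP_KO had microhomology more often, 70.0% against 48.5% (odds ratio 2.48, 1.21 to 5.38, Fisher's exact p = 0.00984), but this did not pass after adjustment over 12 tests (exact adjusted p = 0.118). The shares were 51.1% against 46.8% in CtIP_AA (exact adjusted p = 0.951), 70.2% against 66.3% in XRCC4_KO (exact adjusted p = 0.721) and 55.5% against 49.3% in Wildtype (exact adjusted p = 0.391). Blunt joins were at a lower share beyond the switch regions in all 4 libraries, 20.0% against 22.3% in CtIP_AA, 15.0% against 24.5% in CtIP_KO, 7.89% against 13.3% in XRCC4_KO and 16.4% against 22.7% in Wildtype, and none of these passed (exact adjusted p = 0.951, 0.391, 0.355 and 0.355).

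Few positions were hit more than once. Of 319 positions and strands over the 4 libraries, 37 had 2 or more reads, 29 of them in 1 library and 8 in a pair of libraries. Of the 29, 23 had a single bait end, as repeated reads of 1 join do. The most repeated was 114531855 on the minus strand, between Sε and Sγ1, with 7 reads in Wildtype and a 1 bp microhomology. Of the 8 shared positions, 6 had the same bait end in both libraries (named above), and 2, at 3109925 and 63383369, had other bait ends in each library.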

How the data were processed

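Joins from a Sμ primer were read by HTGTS (linear amplification, nested PCR, MiSeq), with AflII removing germline sequence, per the labels' protocols. The submitters' processing notes name Bowtie2 and the mm9 build. The calling and deduplication of joins are not described in the sources at hand. The authors' deposited values are join counts per region and overlap bin, and lists of positions with the aligned parts of each read. They were used as deposited.

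Overlap was the prey start minus the bait end in the read minus 1: negative is microhomology, 0 blunt, positive an insertion. Zone borders came from the listed spans of Sε (114507131 to 114516473), Sγ1 (114560538 to 114583976) and Sμ (114658176 to 114668027). Libraries, grouped by title, were compared with two-sided Fisher's exact tests, conditional odds ratios with exact 95% intervals, and Benjamini-Hochberg adjustment within each kind of result at a threshold of 0.05. Shares have 95% Wilson intervals. The tests were tried on simulated data. Sites named are positions with 2 or more reads and the 10 fullest windows of 10 kb, other sites being chosen after their values were seen. The members and lists were chosen with earlier results of these data known. Tests ran in scipy 1.17.1 under Python 3.11.15, with tables in pandas 2.3.3 and numpy 2.4.6 and plots in matplotlib 3.10.9.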

Additional observations from a re-analysis of the deposited data

How the results depend on the processing

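Of 344 values recomputed under other settings for 68 results, 317 kept their direction and their side of the threshold, and 57 of 65 did so for the 14 results past the threshold. The values below are odds ratios, and for each the cause was not tested. Counting every listed line, the minus strand share of CtIP_AA in the J and D part turned to 1.24, that of CtIP_KO and XRCC4_KO on the flanks and far chromosome 12 to 0.877 and 1.01, and the CtIP_KO share between Sε and Sγ1 to 0.865, while the XRCC4_KO strand in the J, D and variable part passed at 0.214. Counting joins within 100 bp once, the chromosome 12 share outside IgH lost its call in CtIP_KO at 0.532 and turned to 1.05 in XRCC4_KO, and the CtIP_KO values for Sε to Sγ1 and the far strand turned to 0.979 and 0.992. Without joins in the variable part and near IgH that share was 0.669 in CtIP_KO, call lost, and 1.26 in XRCC4_KO, turned. The XRCC4_KO strand below Sμ against Sγ1 and Sε lost its call in 4 settings, at 0.391 (within 100 bp once), 0.399 (no joins within 2 kb of a switch region), 0.433 (no shared joins) and 0.433 (bait at the primer). Microhomology of at least 2 bp turned CtIP_AA to 1.36 and passed in XRCC4_KO at 3.02. Insertions against the switch regions turned to 1.03 in CtIP_AA (Sγ1 and Sε only), to 0.878 in XRCC4_KO and 0.857 in Wildtype (IgH list only), and in Wildtype to 0.982 without shared joins and 0.961 with bait at the primer. Without joins within 10 kb of a switch region, XRCC4_KO lost its calls below Sε (0.211) and between Sγ1 and Sμ (4.92). CtIP_KO between Sε and Sγ1 turned to 0.911 without shared joins and 0.907 with bait at the primer, where its overall share turned to 0.973. The settings on shared joins, on bait at the primer, on zone shares near a switch region and on summary counts were chosen after seeing the data. No paired analysis was possible because each genotype is 1 library and the labels carry no replicate numbers. Depth limits the CtIP_KO and CtIP_AA values most, with 40 and 45 distinct joins.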

Other observations

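In 4 reads the tables list a pair of joins, so that 1 read crosses 2 junctions on chromosome 12. In XRCC4_KO 2 reads went from Sμ to 114550956 or 114550957 on the plus strand and then to 114551636, also on the plus strand, with an overlap of 15 bp at the second junction. In CtIP_KO and Wildtype 1 read each went from Sμ to 114548662 and then to 114548588, both on the minus strand, with a 3 bp microhomology and a 2 bp insertion. These reads had the same length, 424 bases, and the same bait end. The XRCC4_KO reads also had the same length, 252 bases, and their first junctions were counted as separate distinct joins. Whether the reads of a pair came from 1 molecule was not tested.

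The telomere unit TTAGGG, or its complement CCCTAA, stood at least 3 times in tandem in the joined sequence of 0 of 17 members outside the IgH list in CtIP_KO, 1 of 54 in XRCC4_KO and 2 of 64 in Wildtype. The joined pieces were 25 to 27 bases long and were placed at 74873347 in XRCC4_KO and at 28263231 and 46034659 in Wildtype. Whether such short repeats came from these positions was not tested.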
